A study of Rattus norvegicus with 2 samples.

Results

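Genes of apoptosis, necroptosis and pyroptosis were examined in the rat retina after ischemia-reperfusion (IR). The list held 40 genes, chosen by symbol, that encode caspases, BCL-2 family proteins, mitochondrial death factors, inhibitor of apoptosis proteins, death receptor adaptors, necroptosis effectors and inflammasome parts. Of these 40 genes, 37 were found among the 32662 genes of the expression table, and the expression of *Mcl1*, *Hrk* and *Bbc3* was not analysed here. The data came from 2 rRNA-depleted RNA-seq libraries of whole retina from Long-Evans rats aged 2 months, all female as the study describes its animals. The CTRL retina underwent a sham operation, and the IR12 retina was taken at 12 hours of reperfusion following ischemia. Each condition had 1 library, so no difference below has a replicate check, and the study describes 2 retinas for its 2 samples.

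Apoptosis is carried out by caspases, proteases that are switched on either at death receptors of the cell surface or after cytochrome c leaves the mitochondria, a step controlled by the BCL-2 family. Necroptosis and pyroptosis are lytic forms of death, the former run by the kinases Ripk1 and Ripk3 with the membrane protein Mlkl, the latter by inflammasomes, inflammatory caspases and the pore protein gasdermin D. In the retina, ischemia followed by reperfusion is known to kill ganglion cells and other inner neurons, and all of these routes have been studied in that loss.

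Expression was given as FPKM, which is scaled to transcript length and to the reads of the library, with 1 value per gene and library. Differences between the libraries are log2 ratios of (FPKM + 1), IR12 over CTRL, a scale that understates the difference of low genes. To be counted, a gene needed an FPKM of 1 or more in either library, and at least 2-fold means a log2 ratio of at least 1 or at most -1. The lowest values moved in steps of whole reads, and these steps placed 1.71 times as many reads behind the FPKM of IR12 as behind that of CTRL (26.3 M and 15.4 M reads). What total the FPKM were scaled to is not stated. These are therefore estimates of the reads behind the values and not of the reads sequenced. They differ from the read numbers the study gives, which are also less unequal between the libraries. A transcript of 2000 bases gained 0.0361 FPKM from each read in CTRL and 0.0211 from each in IR12. Values near these steps rest on a few reads, and 17 of the 37 cell death genes were below 1 FPKM in CTRL, compared with 7 in IR12.

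Most of the genes that differed by 2-fold were scarce in CTRL. At least 2-fold higher in IR12 were *Bcl2a1*, *Birc3*, *Ripk3*, *Casp4*, *Ripk1*, *Nlrp3*, *Bak1* and *Bid*, which are 8 of the 30 genes that passed the minimum, and 0 of the 30 were at least 2-fold lower. Of all 13599 genes that passed, 6.56% were at least 2-fold higher and 6.12% at least 2-fold lower. Of the 8 genes, 6 reached the minimum through IR12 alone and therefore had to be higher there to be counted. Only *Ripk1* and *Bak1* had an FPKM of at least 1 in both libraries, which makes 2 of 20 such genes higher and 0 lower, beside 4.37% and 4.19% of the 12243 genes with that level in both. The *Bid* value of 1.08 was the lowest log2 ratio inside the 2-fold limit, and the 0.87 of *Casp12* the highest outside it.

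Over all 37 genes, FPKM was higher in IR12 for 29 and lower for 8, where 53.3% of the 19100 genes with a value above 0 in either library were higher. Their median log2 ratio was 0.43, against 0.02 for those 19100. When the FPKM columns were brought to a common sum (TPM scale), the median of all genes moved up by 0.57, and 17 of the 30 genes were then at least 2-fold higher. All genes shifted with them, from 892 higher and 832 lower as deposited to 2817 higher and 436 lower. Centred on the median gene, the deposited scale gave the same 8 genes. The TPM scale so centred, an alternative chosen after seeing the data, gave 5 of them, with *Bak1* (0.92), *Bid* (0.75) and *Nlrp3* (0.70) under a log2 ratio of 1. Of the 8 genes that were lower as deposited, *Casp9*, *Bcl2l11*, *Apaf1*, *Pycard* and *Aim2* were higher on the TPM scale. Once that scale was centred they were lower again (-0.10, -0.41, -0.02, -0.36 and -0.51). *Casp6*, *Bcl2*, *Fadd*, *Tradd* and *Nlrc4*, higher as deposited, were lower on the centred TPM scale. That centring took 0.60 from every log2 ratio, so genes at 0 in both libraries were at -0.60. Low genes were placed lower by this construction. Whether a lost call or changed sign of theirs depends on scale therefore cannot be told from it.

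**Figure D1:**
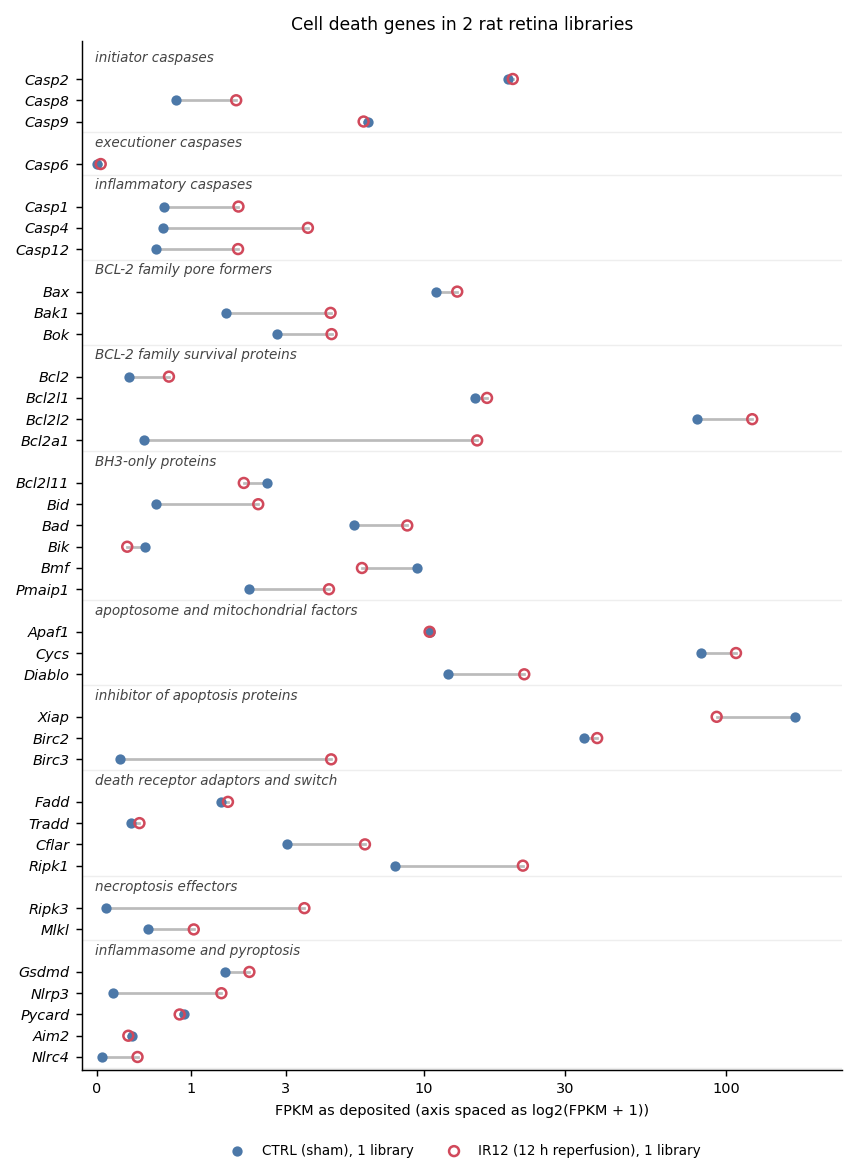
FPKM of the 37 cell death genes in CTRL (filled) and IR12 (open), 1 library each, grouped by role on an axis spaced as log2(FPKM + 1). The longest gap belongs to *Bcl2a1* (0.411 and 15.3), and the most abundant gene, *Xiap* (167 and 93.2), is lower in IR12.

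**Figure D2:**
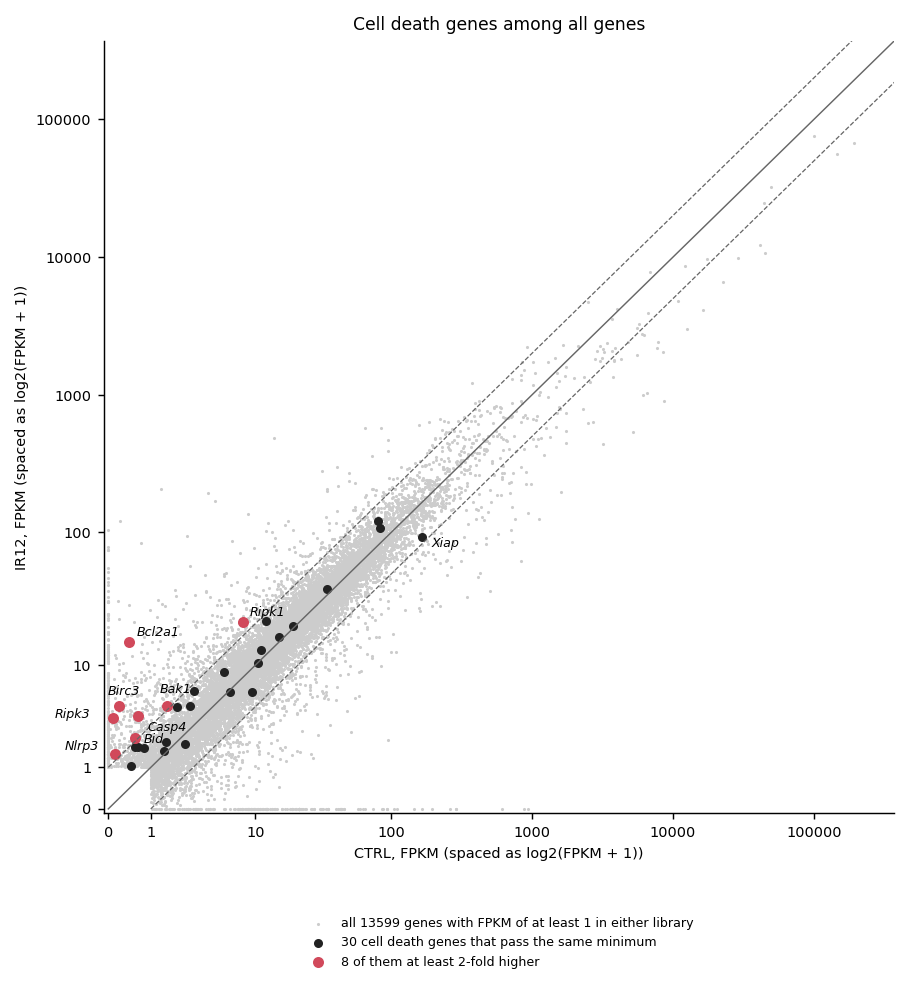
FPKM in IR12 against CTRL for all 13599 genes that passed the minimum (grey) and for the 30 cell death genes among them, with the 8 that were at least 2-fold higher in red. The solid line marks equal values and the dashed lines 2-fold differences of FPKM + 1; 6 of the 8 lie under an FPKM of 1 in CTRL.

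Marker genes of several cell types also differed between the libraries, and in whole retina fewer cells of a type and less RNA per cell cannot be told apart. Of 10 genes marking neutrophils and monocytes, 5 passed the minimum and all 5 were at least 2-fold higher in IR12, but 4 of these passed through IR12 alone and so had to be higher. The 10 genes had a summed FPKM of 10.2 in CTRL and 119 in IR12. The most abundant was *Lyz2*, above 1 in both libraries at 9.73 in CTRL and 76.9 in IR12, and *Mpo* and *Elane* were listed at 0 in both libraries. *S100a8*, listed at 0 in CTRL, was at 12.8 in IR12. Of 7 resident microglia markers, 4 passed the minimum and 0 of these were 2-fold apart. Their sum was 13.1 in CTRL and 13.0 in IR12, led by *Aif1* (5.42 and 7.36), while 5 of the 7 were lower in IR12, among them *P2ry12* (1.67 and 0.650). Markers of Müller glia, the supporting glia of the retina, were at least 2-fold lower for 7 of 8, with a sum of 1635 in CTRL and 559 in IR12. The most abundant was *Glul* in CTRL (754) and *Vim* in IR12 (221), and *Vim* was the gene of that list that was higher. Rod photoreceptor markers, which mark the labelled tissue, summed to 29810 and 29912 FPKM with *Gngt1* the most abundant and 0 of 10 genes 2-fold apart.

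Of 8 ganglion cell markers, 7 passed the minimum and 1 was at least 2-fold lower, *Pou4f2*, and the sum was 331 in CTRL and 269 in IR12, with *Nefl* the most abundant. Lens genes were lower for 9 of 9, from a sum of 3260 to 382 with *Cryba1* the most abundant, although lens is not part of the retina. Blood genes summed to 28.4 and 52.6, led by *Hbb*, with 1 of the 2 that passed higher (4 listed), and the 5 endothelium genes found, led by *Kdr*, summed to 115 and 74.2 with 4 that passed and 0 past 2-fold. Pigment epithelium genes, led by *Rgr*, summed to 43.1 and 42.5 with 1 of the 5 that passed lower (6 listed). The 8 lymphocyte genes, led by *Cd4*, summed to 1.61 and 1.88, and *Cd79a* was at 0 in both; 1 of the 8 passed the minimum and was within 2-fold. On the TPM scale centred on the median gene, 9 lens, 7 Müller glia, 1 ganglion cell and 1 pigment epithelium genes were at least 2-fold lower, and 4 neutrophil and monocyte genes and 1 blood gene higher. Without centring that scale had 9, 6, 0 and 0 genes of the first 4 lists lower, and as higher 5 neutrophil and monocyte, 2 blood, 1 rod, 1 Müller glia and 1 pigment epithelium genes. The part of these lists in the differences of the cell death genes was not tested. Among widely expressed genes, *Gapdh* was at 716 in CTRL and 690.1 in IR12, *Tbp* 24.8 and 28.9, and *Actb* 259.9 and 537. The log2 ratio of *Gapdh* was 0.59 on the TPM scale and -0.01 with that scale centred.

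**Figure D3:**
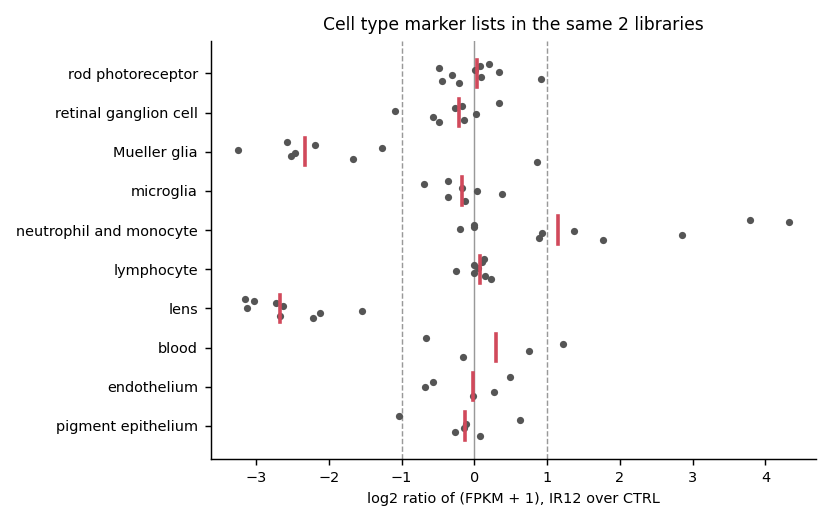
Log2 ratios of (FPKM + 1), IR12 over CTRL, for the genes of 10 cell type marker lists, with the median of each list as a red bar and dashed lines at 2-fold. Lens genes (median -2.68) and Müller glia genes (median -2.33) lie to the left, neutrophil and monocyte genes (median 1.15) to the right.

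Initiator caspases start the apoptotic cascade, and none of the 3 was 2-fold apart as deposited. *Casp2*, which acts in responses to DNA damage and cell division errors, had the highest level of them, with 19.3 in CTRL and 20.1 in IR12. *Casp9*, the caspase of the mitochondrial route, was at 6.32 and 6.09. *Casp8*, which is recruited to death receptors and also holds necroptosis in check, was at 0.786 in CTRL and 1.78 in IR12. Its log2 ratio was 0.64, or 1.09 with a pseudocount of 0.1 and 0.34 on the centred TPM scale. It passed the minimum through IR12 alone. The scarcest initiator caspase in CTRL was thus the one that differed most. *Casp6*, an executioner caspase, was listed at 0 in CTRL and at 0.0311 in IR12, near the worth of 1 read.

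The pore formers of the BCL-2 family open the outer mitochondrial membrane. *Bax*, the most abundant of the 3, was at 11.1 FPKM in CTRL and 13.1 in IR12 (log2 ratio 0.22). *Bak1* (chr20:5609625-5618260 on rn6) was at 1.59 in CTRL and 4.56 in IR12 (1.1), and *Bok*, a less studied relative, at 2.76 and 4.60 (0.57). *Bak1* was therefore the pore former past 2-fold, but it remained below *Bax* in both libraries. Set against the survival gene *Bcl2l1* of the same library, *Bax* stood at 0.735 times its level in CTRL and 0.792 times in IR12, and *Bak1* at 0.105 and 0.276 times.

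Survival proteins of the family bind and restrain the pore formers. The most abundant was *Bcl2l2*, the gene of BCL-W, at 80.3 in CTRL and 121 in IR12 (log2 ratio 0.59), above 90.6% and 94.1% of all genes that passed. *Bcl2l1*, the gene of BCL-XL, was at 15.1 and 16.5 (0.12), and *Bcl2* itself was under 1 in both libraries, at 0.266 and 0.70. These genes stayed within 2-fold as deposited. In contrast *Bcl2a1* (ENSRNOG00000047606, chr8:96551245-96559483 on rn6), a survival gene known mainly from leukocytes and as a target of NF-kB, was at 0.411 in CTRL and 15.3 in IR12 (3.53), the highest ratio of the 37 genes. It was above 2.23% of all passing genes in CTRL and above 54.3% in IR12, and it stood at 0.0273 times the level of *Bcl2l1* in CTRL but 0.926 times in IR12. The summed FPKM of neutrophil and monocyte markers was higher in the same library.

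The promoters of the genes were searched for motifs. RefSeq windows from 250 bases before to 50 after the start (build GRCr8) were found for 29 of the 40 genes. They were read on both strands for the AP-1 motif, TGACTCA on 1 strand and TGAGTCA on the other, for the NF-kB decamer, and for the core of the interferon-stimulated response element, 2 copies of GAAA separated by 2 bases of any kind. The AP-1 letters were in the windows of *Birc2*, *Diablo* and *Ripk3*, which is 3 of 29 genes, beside 4.63% of 33469 windows of all genes. With any base in the middle (TGANTCA) the window of *Bcl2a1* matched too, which makes 4 of 29 beside 7.33%. The *Ripk3* stretch is shown because that gene is the 1 of the 3 past 2-fold. Its AP-1 letters, in capitals, lie 64 to 58 bases before the start, and the stretch is chr15:33262058-33262117 on the minus strand of GRCr8, printed in the direction of the gene.
Ripk3: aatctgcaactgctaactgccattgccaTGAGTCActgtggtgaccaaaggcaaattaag
A match describes the letters of the window and is no measure of binding. For each motif the members were counted by gene and the background by window, so the shares are not in like units. The NF-kB decamer was found in the windows of *Fadd*, *Hrk*, *Mcl1* and *Pmaip1* (4 of 29 genes, beside 7.51% of all windows). Of these, *Hrk* and *Mcl1* have no expression value here. Windows of *Bax*, *Bbc3*, *Bik*, *Birc3*, *Bok*, *Casp4*, *Casp8*, *Gsdmd*, *Nlrc4*, *Tradd* and *Xiap* were not analysed here.

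BH3-only proteins sense damage and tip the balance between the survival proteins and the pore formers, and their differences went both ways. *Bid* (chr4:153442218-153465203 on rn6), which caspases cut to link death receptors with mitochondria, was at 0.544 in CTRL and 2.27 in IR12 (log2 ratio 1.08). *Pmaip1*, also called NOXA, was at 2.05 and 4.50 (0.85). *Bad*, which growth factor signals silence by phosphorylation, was at 5.61 and 8.76 (0.56). Lower in IR12 were *Bmf*, a sensor tied to the cytoskeleton, at 9.45 in CTRL and 6.0 in IR12 (-0.58), and *Bcl2l11*, the gene of BIM, at 2.48 and 1.94 (-0.24). On the TPM scale the log2 ratio of *Bmf* was -0.01 and that of *Bcl2l11* 0.19, and with that scale centred they were -0.61 and -0.41. *Bmf* was the most abundant of the group in CTRL and *Bad* in IR12, so that their order turned, from 1.69 *Bmf* per *Bad* to 0.685. *Bik* was under 1 in both libraries, at 0.431 and 0.252.

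Once the mitochondria are open, cytochrome c and Apaf1 form the apoptosome that activates caspase-9. *Cycs*, the cytochrome c gene, was at 82.9 in CTRL and 108 in IR12 (log2 ratio 0.37), a high level that also serves respiration. *Apaf1* was at 10.5 in both libraries (-0.01). *Diablo*, released with cytochrome c to displace inhibitors from caspases, was at 12.1 and 22 (0.81). None of the 3 was 2-fold apart as deposited.

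The inhibitor of apoptosis proteins held both the most abundant gene of the list and a gene near the floor. *Xiap* (chrX:128409472-128453000 on rn6), which binds and blocks caspases directly, reached 167 FPKM in CTRL and 93.2 in IR12. Its log2 ratio of -0.83 was the lowest of the 37 genes, and it was -0.19 on the TPM scale and -0.79 with that scale centred. *Birc2*, a ubiquitin ligase that marks Ripk1 at the tumour necrosis factor receptor, was at 34.6 and 38.3 (0.14). *Birc3* (ENSRNOG00000005731, chr8:6048969-6076598), its close relative 14.8 kb away on the same chromosome, was at 0.190 in CTRL and 4.58 in IR12 (2.23). These neighbours, a duplicated pair with the same domains, thus differed in ratio. Were the *Birc3* transcript 2000 bases long, its CTRL value would stand for 5.28 reads and its IR12 value for 217. *Xiap* stood at 4.81 times the level of *Birc2* in CTRL and 2.44 times in IR12, *Birc3* at 0.0055 and 0.120 times. Together the 3 genes summed to 201 FPKM in CTRL and 136 in IR12, a sum led by *Xiap*. Against *Xiap* in its own library, its antagonist *Diablo* stood at 0.0728 times in CTRL and 0.236 times in IR12.

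Death receptor adaptors carry the signal from the receptor to *Casp8* or to the necroptosis kinases. *Fadd*, the adaptor that recruits caspase-8, was at 1.5 in CTRL and 1.62 in IR12, and *Tradd*, the adaptor of the tumour necrosis factor receptor, at 0.287 and 0.370. The *Tradd* value is uncertain, since its listed locus overlaps *B3gnt9* and RGD621098, the latter at 24.4 and 20.9. *Cflar*, an inactive relative of *Casp8* that decides between survival and death at the receptor, was at 3.03 and 6.15 (log2 ratio 0.83). It lies 26.9 kb from *Casp8*, and with both genes higher in IR12 their ratio stayed alike, at 3.85 *Cflar* per *Casp8* in CTRL and 3.45 in IR12. *Ripk1* (ENSRNOG00000017787, chr17:31537591-31569904), the kinase where survival, apoptosis and necroptosis part, was at 7.94 in CTRL and 21.8 in IR12 (1.35). Among the 8 genes past 2-fold it was the most abundant in both libraries.

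Both necroptosis effectors were under 1 in CTRL and above 1 in IR12. *Ripk3* (ENSRNOG00000020465, chr15:34470796-34479741 on rn6), the kinase that Ripk1 activates, was at 0.0721 in CTRL and 3.59 in IR12 (log2 ratio 2.10). In a transcript of 2000 bases the CTRL value would be about 2 reads, so its level there is known only as low. *Mlkl*, which Ripk3 phosphorylates and which then breaches the cell membrane, was at 0.460 and 1.04 (0.48). *Ripk3* was thus below *Mlkl* in CTRL and above it in IR12, while it stayed below *Ripk1* in both libraries. Of the further necroptosis genes, *Zbp1*, a sensor of nucleic acids in Z form, was at 0.174 and 0.595, and *Ppm1b*, a phosphatase that restrains Ripk3, at 279 and 179, within 2-fold.

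Inflammatory caspases serve pyroptosis and cytokine release, and the 3 genes lie side by side on chromosome 8. *Casp4* (ENSRNOG00000033697, chr8:2635851-2651652 on rn6), the counterpart of mouse caspase-11 that senses bacterial lipopolysaccharide, was at 0.633 in CTRL and 3.71 in IR12 (log2 ratio 1.53). *Casp1*, which matures interleukin-1β, was at 0.635 and 1.83 (0.79), and *Casp12* at 0.542 and 1.82 (0.87). All 3 had similar low levels in CTRL, and in IR12 *Casp4* was 2.03 times *Casp1*, while *Casp12* was 0.995 times *Casp1*. The gaps are 21.2 kb from *Casp1* to *Casp4* and 8.21 kb from *Casp4* to *Casp12*.

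The promoters of *Casp1* and *Casp12* are shown because both hold the core of the interferon-stimulated response element close to the start. Its letters were found in 3 of 29 genes, the other being *Cflar*, beside 3.92% of the windows of all genes. In *Casp1* the match lies 28 to 19 bases before the start and in *Casp12* 38 to 29 bases before it, in both on the strand opposite to the gene. The stretches are chr8:10872770-10872829 for *Casp1* and chr8:10927125-10927184 for *Casp12*, both on the plus strand of GRCr8, with the match in capitals.
Casp1: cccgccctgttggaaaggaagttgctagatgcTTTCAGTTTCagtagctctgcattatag
Casp12: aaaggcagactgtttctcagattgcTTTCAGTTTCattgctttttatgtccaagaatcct
The 10 bases in capitals are the same in both genes, which are neighbours of common descent and so are not independent examples.

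Inflammasome sensors differed from one another. *Nlrp3* (ENSRNOG00000003170, chr10:45893018-45918254), a sensor of membrane damage and ion loss, was at 0.124 in CTRL and 1.5 in IR12 (log2 ratio 1.15), values that in a transcript of 2000 bases would be 3.44 and 70.8 reads. *Aim2*, a sensor of DNA in the cytosol, was at 0.299 and 0.263, and *Nlrc4*, a sensor of bacterial flagellin, at 0.0399 and 0.351. Their adaptor *Pycard* was at 0.896 and 0.839. *Gsdmd*, whose product forms the pore of pyroptosis, was at 1.56 and 2.07 (0.26). Of these 5 genes *Nlrp3* and *Gsdmd* passed the minimum, and *Nlrp3* was past 2-fold. *Nlrc4*, under the minimum, had a log2 ratio of 0.38, or 1.69 with a pseudocount of 0.1. It was at -0.16 on the centred TPM scale, which places low genes lower by construction. The neutrophil and monocyte marker sum, given above, was also higher in IR12, and its part here was not tested.

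Genes of the same routes beyond the list were read too. Of 39 further cell death genes, 38 were found and 31 passed the minimum, of which 3 were at least 2-fold higher and 1 at least 2-fold lower, beside 6.56% and 6.12% of all genes that passed, with a median log2 ratio of 0.25. *Il1b*, the cytokine that inflammasomes release, was at 0.109 in CTRL and 12.1 in IR12 (log2 ratio 3.56). *Tnfrsf1a*, the main receptor of tumour necrosis factor, was at 1.71 and 8.69 (1.84), and the gene of the ligand, *Tnf*, was listed at 0 in both libraries, which need not mean that it was absent. *Ninj1*, which ruptures the membrane at the end of lytic death, was at 3.05 and 8.65 (1.25). These are the 3 higher genes, and all but *Il1b* had an FPKM of at least 1 in both libraries.

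The gene that was lower was *Bnip3*, a mitochondrial protein of mitophagy that low oxygen induces, at 130.1 in CTRL and 49.0 in IR12 (log2 ratio -1.39). Of the genes that passed the minimum and were within 2-fold, its relative *Bnip3l* had the lowest ratio (-0.91) and *Traf2* the highest (0.69). Without small RNA genes in the sum *Bnip3l* was at -1.01, which made 2 lower genes. *Bnip3* was lower on the TPM scale as well (-0.75), where 8 of the 31 genes were at least 2-fold higher and 0 at least 2-fold lower. With that scale centred *Bnip3* was at -1.35, and the counts were 3 and 1. *Gsdme*, read under its older symbol *Dfna5*, encodes another pore protein and was at 4.22 and 4.20.

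**Figure D4:**
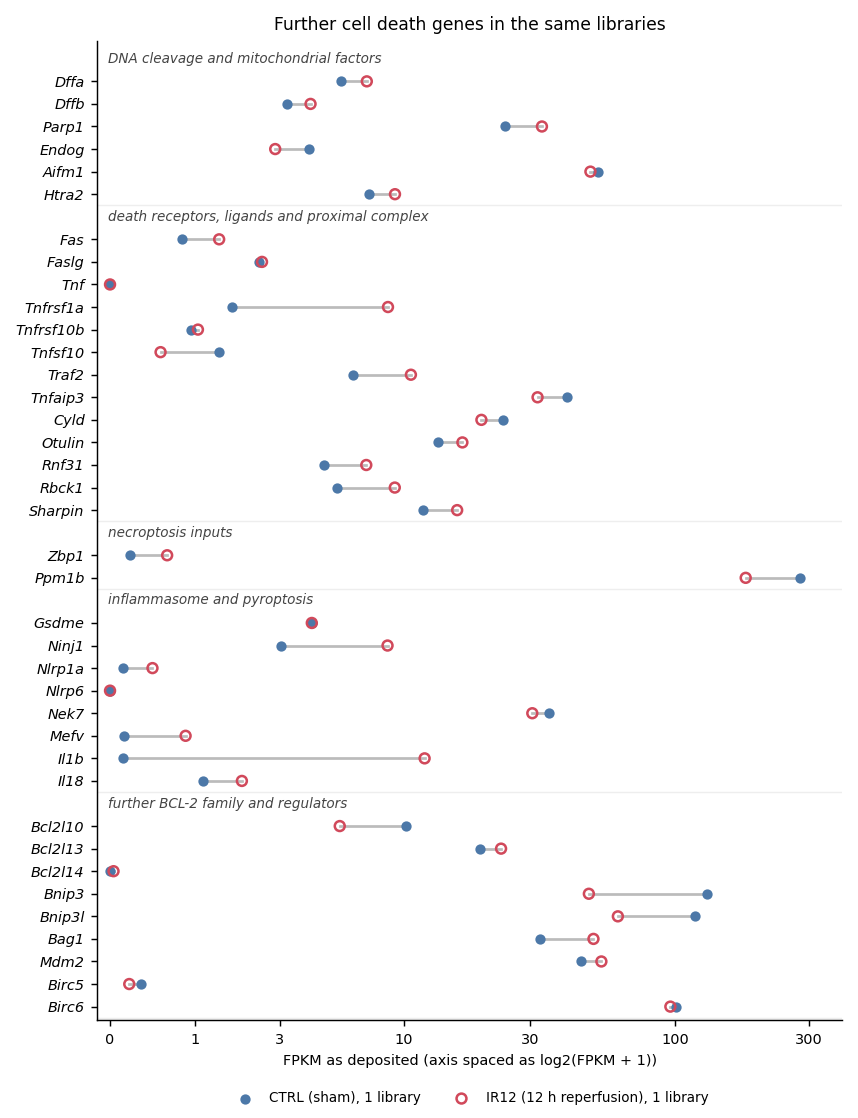
FPKM of the 38 further cell death genes in CTRL (filled) and IR12 (open), 1 library each, on an axis spaced as log2(FPKM + 1). *Il1b* (0.109 and 12.1) and *Tnfrsf1a* (1.71 and 8.69) are higher in IR12, and *Bnip3* (130.1 and 49.0) is lower.

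The log2 ratios of the 37 genes were compared under other scalings to see which of them depend on the scale. All 8 genes stayed at least 2-fold higher with a pseudocount of 0.1, on the TPM scale, without small RNA genes in the sum and, on the deposited scale, relative to the median gene. Relative to the median gene of the TPM scale 5 did. That centring places low genes lower by construction, so whether the lost calls depend on scale cannot be told from it. A pseudocount of 0.1 widened the ratio of genes that were low in CTRL, so that 14 of the 30 were at least 2-fold higher. These were the 8 and *Casp12*, *Pmaip1*, *Casp1*, *Cflar*, *Casp8* and *Mlkl*. Of all 13599 genes that passed, 1168 were then higher and 1176 lower. *Casp12*, *Casp1*, *Casp8* and *Mlkl* reached the minimum through IR12 alone and so had to be higher there to be counted. Abundant genes such as *Bcl2l2* and *Cycs* moved past 2-fold only on the TPM scale, with log2 ratios of 1.23 and 1.01, where the median gene was at 0.59.

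**Figure D5:**
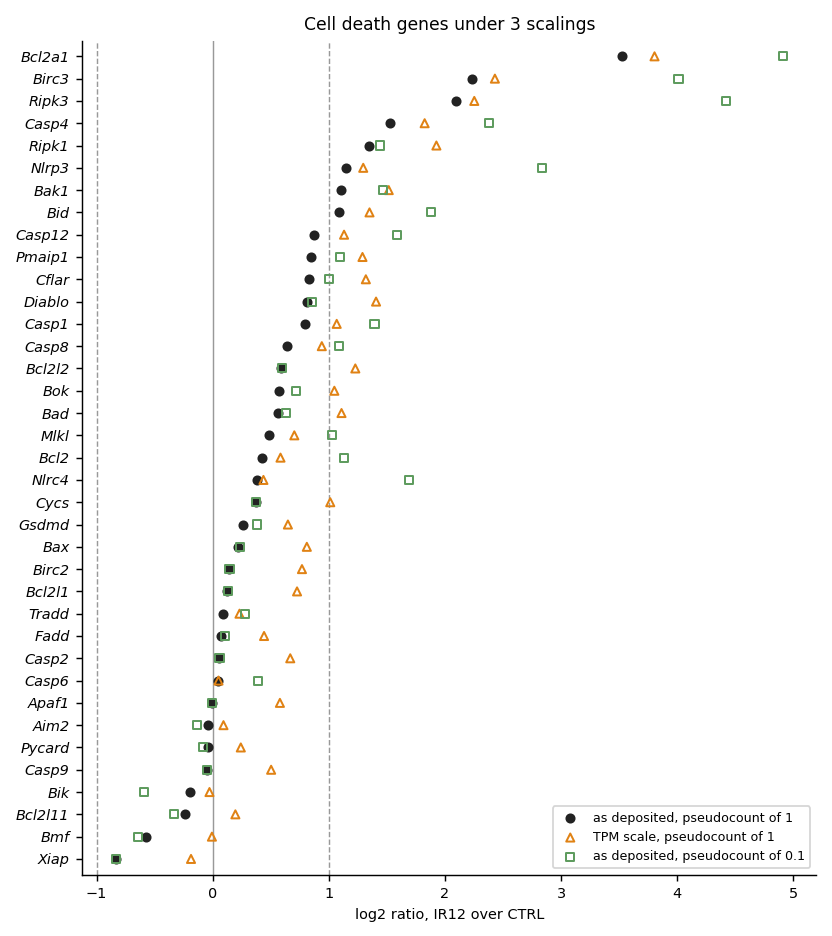
Log2 ratio of the 37 cell death genes, IR12 over CTRL, as deposited with a pseudocount of 1 (filled circles), on the TPM scale (triangles) and with a pseudocount of 0.1 (squares), with dashed lines at 2-fold. The 8 genes from *Bcl2a1* to *Bid* lie past 2-fold under all 3, and *Xiap* has the lowest ratio under each.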

How the data were processed

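The authors deposited gene-level FPKM on rn6 for 32662 genes, 1 column per library. The submitters' processing notes name STAR 2.5.2b and Cuffdiff 2.2.0 without their roles, and per the study the reads were shortened before use. The kit is a stranded total RNA kit in the labels and in the study's methods and a stranded mRNA kit in the series description, and each names removal of rRNA. Small RNA genes, recognised by symbol, made up 68.0% of the FPKM sum of CTRL and 46.3% of that of IR12, so FPKM was used as deposited and the common sum (TPM scale) was an alternative. Members were matched by symbol, and the members and lists were chosen with earlier results of these data known. Some genes of the further and marker lists are not reported here and were left out of the counts and sums of those lists. Named were the 40 members, further cell death genes at least 2-fold apart, widely expressed genes and the leading gene of each marker list; other genes were named after their values were seen. Depth came from the lowest repeated FPKM at 25 shared locus lengths under 1500 bases, where the ratio of the libraries was 1.71 at 17. No test was run, since each condition has 1 library. Starts in the table are 0-based, and 1 was added for printing. Alternatives were a pseudocount of 0.1, other scalings and centring, minimum FPKM of 5 or none, 1.5-fold and, chosen after seeing the data, FPKM of at least 1 in both libraries or on average and the centred TPM scale. The scripts were tested on simulated data. Promoter windows are from RefSeq (GRCr8). Calculations used pandas 2.3.3 and numpy 2.4.6 in Python 3.11.15, and figures matplotlib 3.10.9.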

Additional observations from a re-analysis of the deposited data

How the results depend on the processing

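No replicate could be left out, since each condition has 1 library, and no paired analysis was possible because a difference of 1 library from 1 library comes from no test. In IR12, 8 of 30 genes were 2-fold higher or more as deposited, without small RNA genes in the sum and centred on the median gene. The count was 14 with a pseudocount of 0.1, 17 on the TPM scale, 2 of 15 with a minimum FPKM of 5 and 15 with a limit of 1.5-fold, where 1 gene (*Xiap*) was lower. With an FPKM of at least 1 in both libraries, chosen after seeing the data, it was 2 of 20, as fewer low genes entered. With a mean FPKM of at least 1 it was 7 of 28, without *Nlrp3*, beside 829 higher (6.29%) and 798 lower (6.05%) of all 13186 genes. On the TPM scale centred on the median gene it was 5 of 30, without *Bak1*, *Bid* and *Nlrp3*. Both alternatives were likewise chosen after seeing the data. The centring of the TPM scale places low genes lower by construction. Whether its lost calls and its lower median reflect a dependence on scale therefore cannot be told. The median log2 ratio of the genes, 0.58 over the 30, was 0.78 with a pseudocount of 0.1, 1.06 on the TPM scale, 0.22 with a minimum of 5, 0.43 with no minimum, 0.24 with at least 1 in both and 0.46 on the centred TPM scale. Over all genes, 2817 were higher and 436 lower on the TPM scale, 767 and 957 on the centred TPM scale, 1168 and 1176 with a pseudocount of 0.1, 655 and 624 of 10281 with a minimum of 5, 2007 and 1861 at 1.5-fold, and 535 and 513 with at least 1 in both, beside 892 and 832. For the 30 genes that passed the minimum, 127 of 150 log2 ratios under 5 alternatives kept their sign and their side of 2-fold, 5 within 2-fold changed sign, 15 moved past 2-fold and 3 fell within it. Of the 7 genes under the minimum, *Bcl2* (1.13) and *Nlrc4* (1.69) were past 2-fold with a pseudocount of 0.1. Among the same genes *Pycard* (0.24) and *Aim2* (0.09) turned higher on the TPM scale. *Bcl2* (-0.02), *Nlrc4* (-0.16), *Tradd* (-0.37) and *Casp6* (-0.55) turned lower on the centred TPM scale. The cause of these shifts was not tested. FPKM under 0.1 in CTRL rests on a few reads, and an FPKM of 0 is not absence. The slope of the read steps against length, also added after seeing the data, gave the same depth ratio, 1.71. It was drawn from the same lowest repeated FPKM values, so it is no independent check.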

Other observations

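Genes within 500 kb of the 8 cell death genes past 2-fold were read from the rn6 positions, after the values of the 8 were seen and with small RNA genes left out. Of 111 such genes with an FPKM of at least 1 in at least 1 library, 16 were higher in IR12 by 2-fold or more and 1 was lower by as much, beside 6.29% and 4.39% of all 13097 such genes. Among the 16, *Mmp3*, *Mmp10*, *Tgm1* and *Lst1* were under 1 in CTRL. They passed through IR12 alone and so had to be higher there to be counted. Near *Bak1*, which lies beside the rat major histocompatibility complex on chromosome 20, 8 of 35 were higher, among them the class I gene *RT1-A2* at 12.5 in CTRL and 118 in IR12 and the anion transporter *Slc26a8* at 3.85 and 48.3. *RT1-A2* and *RT1-A1*, both counted as higher, share 1 listed locus, so their values are uncertain. Near *Ripk3*, 4 of 25 were higher, namely *Irf9*, a factor of interferon signalling, at 10.6 and 54.3, the proteasome activator genes *Psme1* (35.6 and 77.3) and *Psme2* (14.2 and 34.8), and *Tgm1* (0.307 and 8.06).

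Within 500 kb of *Birc3* lie metalloproteinase genes. *Mmp3*, which cuts extracellular matrix, was listed at 0 in CTRL and at 74.2 in IR12, and *Mmp10* was at 0.0865 and 6.46. Thus 2 of 8 genes there were higher, but both passed the minimum through IR12 alone and had to be higher to be counted. Near *Bid*, 2 of 13 were higher, *Usp18*, which removes the ubiquitin-like protein ISG15, at 1.26 and 13.4, and *Il17ra* at 1.43 and 6.15. The transporter *Slc6a13* in that stretch was lower, at 17.0 in CTRL and 1.82 in IR12. Around *Casp4*, *Bcl2a1*, *Ripk1* and *Nlrp3*, 0 of 2, 6, 5 and 17 genes were 2-fold apart. The 2 near *Casp4* were *Casp1* and *Casp12*, and *Birc2* was among the 8 near *Birc3*, so these counts include genes of the cell death list. These genes were picked for where they lie and named for how they differ, so their values are a description.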
